A study of Mus musculus with 6 samples.

Results

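The 9 transcripts described here mark platelets and the megakaryocytes that shed them, and they were read in red cells purified from mouse blood. They are Pf4, Ppbp, Itga2b, Itgb3, Gp1ba, Gp1bb, Gp9, Tubb1 and Treml1, taken by symbol from the 27179 genes of each count table, and all 9 were found. The mutant mice were BalB/c males that carried 1 copy of the C587R missense allele of Nxf1, the gene for the main export receptor of messenger RNA, and the controls were their wild-type (Nxf1+/+) littermates of the same strain. Each group had 3 libraries, each from 1 animal, and each of 3 labelled batches held 1 mutant and 1 wild-type library. Ages are not stated in the labels, and both groups shared the same purification with no other treatment. The comparison asked how much platelet RNA remained in each preparation and whether it differed by genotype.

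Platelets are cell fragments without a nucleus that plug damaged vessels, and they keep messenger RNA from the megakaryocyte. The GPIb-IX complex catches von Willebrand factor on an injured vessel wall, the integrin alphaIIb-beta3 then binds fibrinogen and links platelets to each other, and alpha granules release chemokines. Because platelets and red cells travel in the same blood, a red cell pellet can hold some platelets. According to the labels' protocols, each suspension was stained for CD41, which is the Itga2b protein, and for leukocytes and nucleated cells, and those sequenced passed a purity above 99.8%.

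Total counts were 14636739 to 15790336 per library, of which globin genes took 88.1% to 89.3%, and 3 counts in a library equal 0.190 to 0.205 CPM (counts over the library total, scaled to 1000000). The red cell label fitted its markers, with 13466436 to 14048152 counts over 10 red cell genes in the mutants, against 13556367 to 14453261 in wild type. Nxf1 itself had 9, 7 and 11 counts in mutant libraries 1 to 3 and 15, 10 and 20 in wild-type libraries 1 to 3, and a count per gene does not show the allele. TMM factors, which edgeR derives from the bulk of genes, were 0.720, 0.780 and 1.06 in the mutants, against 1.23, 1.11 and 1.23 in wild type. The choice of scale therefore matters for every level below: over all 2823 genes tested the median log2 fold change, mutant over wild type, was −0.06 with TMM and −0.53 with total counts. Hepatocyte transcripts stood apart by group, with 1632 to 3766 counts over 12 genes in the mutants, against 13 to 92 in wild type, and 8 exocrine pancreas genes had 285 counts in wild-type library 1 and at most 2 in any other.

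Platelet transcripts were present in all 6 libraries at a low level. The 9 genes together had 197, 78 and 151 counts in mutant libraries 1 to 3, against 169, 176 and 321 in wild-type libraries 1 to 3. As levels these were 12.98, 5.12 and 10.3 CPM in the mutants, against 10.9, 11.96 and 20.3 CPM in wild type. Wild-type library 3 was the highest and mutant library 2 the lowest, 3.97-fold apart, and the other 4 libraries lay between with overlap of the groups. The 95% Wilson intervals were 4.10 to 6.38 CPM for mutant library 2 and 18.2 to 22.7 CPM for wild-type library 3, and they cover counting error only, not the spread between animals. In these bulk libraries fewer platelets and less RNA per platelet cannot be told apart.

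The difference by genotype varied with the library left out and with the scale. The mutants averaged 9.47 ± 4.002 CPM and wild type 14.4 ± 5.16 CPM (SD, n = 3 each), a difference of −4.93 CPM that was smaller than the wild-type spread. It was −1.96 CPM without wild-type library 3 and −2.75 CPM without mutant library 2. Leaving out any other library widened it, to −6.68 CPM without mutant library 1 and −5.35 CPM without mutant library 3. Without wild-type library 1 or 2 it was −6.67 or −6.15 CPM. Within batches the ratio of mutant to wild type was 1.19 in batch 1, 0.428 in batch 2 and 0.507 in batch 3, so the batches did not move alike. With TMM factors the sums were 18.0, 6.56 and 9.75 CPM in the mutants, against 8.88, 10.7 and 16.5 CPM in wild type, averaging 11.4 ± 5.93 in the mutants, against 12.1 ± 3.996 in wild type (n = 3 each, SD). On that scale mutant library 1 was the highest of the 6, and the ratios within batches 1 to 3 were 2.03, 0.611 and 0.589.

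**Figure D1:**
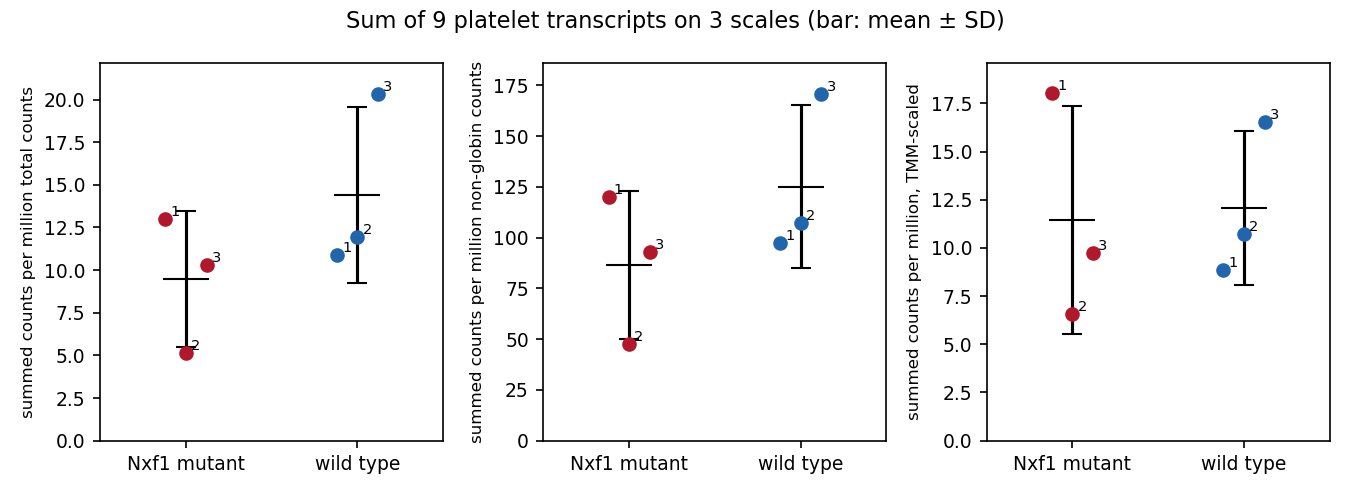
Sum of the 9 platelet transcripts in each library (points, numbered by replicate) as CPM of total counts, of non-globin counts and with TMM scaling; horizontal bars and whiskers are the mean and SD of 3 libraries. The groups overlap in all 3 panels, and mutant library 1 moves above wild-type library 3 only with TMM scaling, at 18.0 CPM against 16.5 CPM.

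Of the 9 members, 6 passed the filter on low counts, and edgeR's quasi-likelihood test called 0 of them at an adjusted p under 0.05, where 7.05% of all genes tested were called, 5.99% higher and 1.06% lower in the mutants. At an unadjusted p under 0.05 there were also 0, and DESeq2 called 0 with 0 at an unadjusted p under 0.05. Their median log2 fold change was −0.06, against the same −0.06 over all genes tested. With total counts the median of the 6 was −0.58, against −0.53 over all genes, and again 0 were called, against 12.8% of all genes, 4.07% higher and 8.68% lower. Only Pf4 was at an unadjusted p under 0.05 on that scale.

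**Figure D2:**
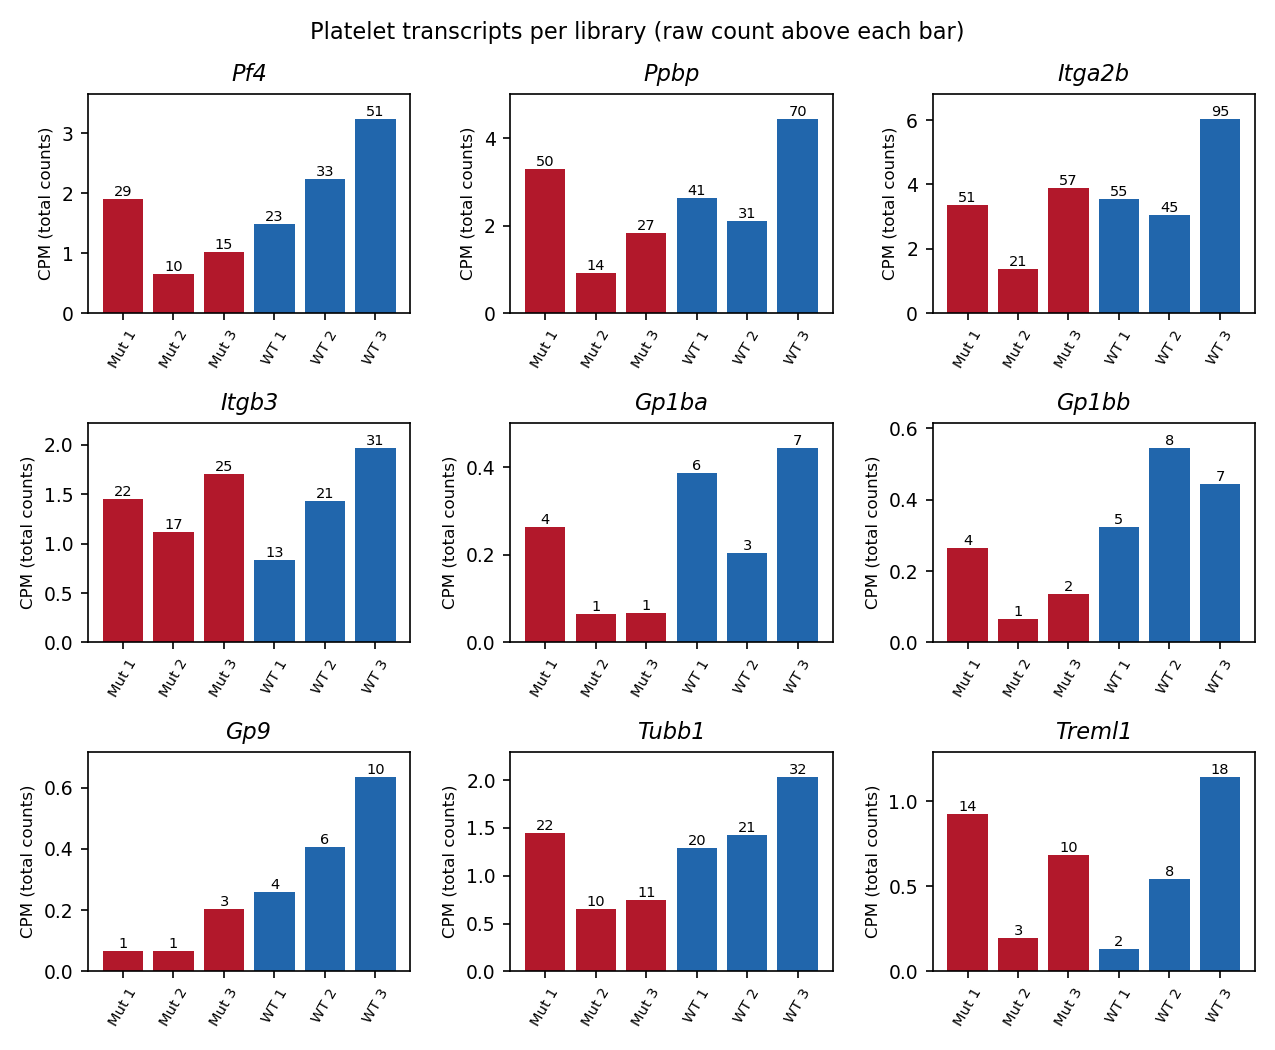
Level of each member in CPM of total counts (bars, from 0) in the 3 mutant and 3 wild-type libraries, with the raw count printed above each bar. On this scale wild-type library 3 is the highest for 8 of the 9 genes and mutant library 2 the lowest for 7; libraries with equal counts differ slightly through their totals.

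The alpha granule chemokines were among the most counted members. Pf4, platelet factor 4, which binds heparin, had 29, 10 and 15 counts in mutant libraries 1 to 3 and 23, 33 and 51 in wild-type libraries 1 to 3. Mutant libraries 2 and 3 were below all wild-type libraries, while mutant library 1 was above wild-type library 1. Pf4 averaged 1.20 ± 0.645 CPM in the mutants, against 2.32 ± 0.875 CPM in wild type (n = 3 each, SD), and the log2 fold change was −0.43 (SE 0.42, edgeR adjusted p = 0.693). With total counts it was −0.95 (SE 0.42, edgeR adjusted p = 0.136), the lowest adjusted p of any member under any setting tried. With TMM the Pf4 value was −1.04 without mutant library 1, −0.11 without mutant library 2, −0.096 without mutant library 3, −0.68 without wild-type library 1 and −0.14 without wild-type library 3. Ppbp, whose product is cut to the neutrophil attractant NAP-2, had 50, 14 and 27 counts in the mutants, against 41, 31 and 70 in wild type. Mutant library 1 was the second highest, and the groups overlapped. Its log2 fold change was −0.06 (SE 0.45, edgeR adjusted p = 0.963). Pf4 (Entrez gene 56744, chromosome 5, 90772435 to 90773383 in mm10) and Ppbp (Entrez gene 57349, chromosome 5, 90768518 to 90770063) are neighbours.

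The integrin pair took the largest part of the platelet count over all libraries together. In mutant library 1 the chemokines took more, with 79 counts against 73. Itga2b, the alphaIIb chain and the CD41 antigen used in the purity check, was the most counted member, with 51, 21 and 57 counts in mutant libraries 1 to 3 and 55, 45 and 95 in wild-type libraries 1 to 3. All but the highest and the lowest of these lay close together, across both groups. It averaged 2.88 ± 1.33 CPM in the mutants, against 4.21 ± 1.58 CPM in wild type (n = 3 each, SD), with a log2 fold change of −0.06 (SE 0.33, edgeR adjusted p = 0.949). Itga2b (Entrez gene 16399, 102453297 to 102469883) and Itgb3 (Entrez gene 16416, 104608000 to 104670476) both lie on chromosome 11. Itgb3, the beta3 chain, which other cells also pair with alphaV, had 22, 17 and 25 counts in the mutants, against 13, 21 and 31 in wild type. Its groups lay over each other, with averages of 1.42 ± 0.297 CPM in the mutants, against 1.41 ± 0.562 CPM in wild type (n = 3 each, SD). Its log2 fold change was 0.50 with TMM (SE 0.33, edgeR adjusted p = 0.492) and 0.01 with total counts (SE 0.38, edgeR adjusted p = 0.984). The TMM value of Itgb3 was 0.22 without wild-type library 1 and 0.79 without wild-type library 3.

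Beta-1 tubulin and the granule receptor were less abundant. Tubb1, the beta tubulin of the platelet's marginal microtubule band, had 22, 10 and 11 counts in the mutants, against 20, 21 and 32 in wild type. Mutant libraries 2 and 3 were the lowest and mutant library 1 lay among wild type. The log2 fold change was −0.21 (SE 0.38, edgeR adjusted p = 0.850), and −0.73 with total counts (SE 0.39, edgeR adjusted p = 0.200). The gene (Entrez gene 545486) lies on chromosome 2, from 174450595 to 174458380. Treml1, or TLT-1 (Entrez gene 71326, chromosome 17, 48359916 to 48367176), a receptor that alpha granules bring to the surface on activation, had 14, 3 and 10 counts in the mutants, against 2, 8 and 18 in wild type. No other member was this uneven within wild type, where library 1 had the fewest counts of all 6 libraries. Its log2 fold change was 0.47 with TMM (SE 0.66, edgeR adjusted p = 0.787) and −0.02 with total counts (SE 0.64, edgeR adjusted p = 0.986).

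**Figure D3:**
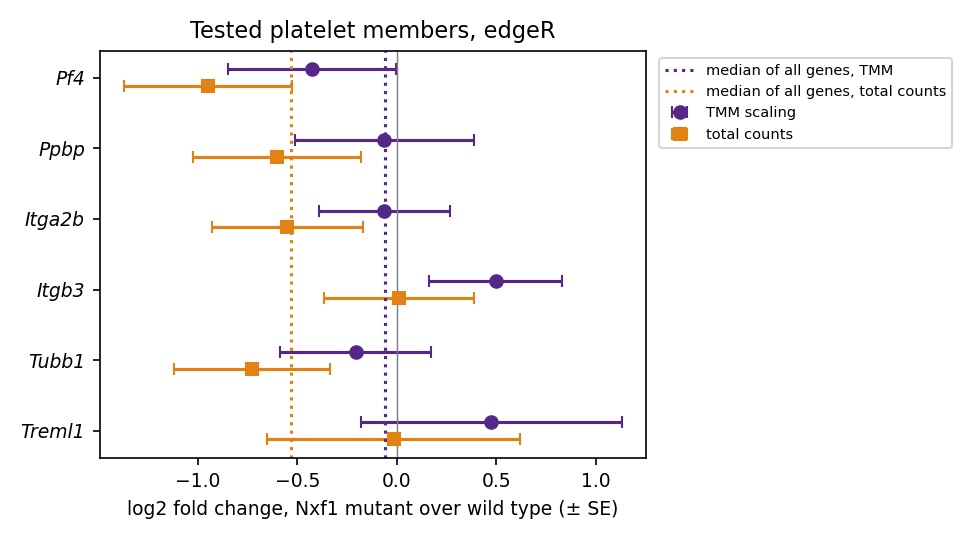
Log2 fold change, mutant over wild type, of the 6 tested members with TMM scaling (circles) and total counts (squares); whiskers are 1 SE and dotted lines the median of all 2823 genes on each scale. Total counts move every member down by about as much as the median of all genes, and Pf4 has the lowest value on both scales, at −0.43 and −0.95.

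The 3 genes of the GPIb-IX complex were too sparse to pass the filter. They lie apart in the genome, Gp1ba (Entrez gene 14723) on chromosome 11 from 70639102 to 70643986, Gp1bb (Entrez gene 14724) on chromosome 16 from 18620319 to 18622403 and Gp9 (Entrez gene 54368) on chromosome 6 from 87776131 to 87779786. Gp1ba, the chain that binds von Willebrand factor, had 4, 1 and 1 counts in mutant libraries 1 to 3 and 6, 3 and 7 in wild-type libraries 1 to 3. Gp1bb, its disulfide-linked partner, had 4, 1 and 2 counts in the mutants, against 5, 8 and 7 in wild type. Gp9, the small chain needed to bring the complex to the surface, had 1, 1 and 3 counts in the mutants, against 4, 6 and 10 in wild type. The groups overlapped for Gp1ba and did not for Gp1bb and Gp9, though many of these values sit near the 3 counts that a library with 0 would still allow. In CPM, Gp1bb averaged 0.155 ± 0.1003 in the mutants, against 0.437 ± 0.111 in wild type, and Gp9 averaged 0.112 ± 0.0804 in the mutants, against 0.433 ± 0.189 in wild type (n = 3 each, SD). The exact two-sided permutation test gave p = 0.1 for both, the smallest value that 3 against 3 allows, and p = 0.2 for Gp1ba. All mutants below all wild type was a common pattern on this scale, seen in 24.8% of 6128 genes with at least 20 counts, so 2 of 9 members is near the background; the reverse order was seen in 5.01% of genes and 0 of 9 members. With TMM-scaled CPM only Gp9 of the 9 kept its groups apart (exact permutation p = 0.1), against 9.33% of genes, and 9.64% had the reverse order. In an edgeR fit with no filter the log2 fold changes were −0.76 (SE 0.83) for Gp1ba, −0.92 (SE 0.74) for Gp1bb and −1.40 (SE 0.81) for Gp9, with adjusted p of 0.762, 0.739 and 0.669, and 2.83% of all genes in that fit were called, 2.33% higher and 0.5% lower. The gene model of Gp1bb shares 593 bases with Septin5, so its reads may be affected by how overlaps were counted. Septin5 had 0, 1 and 1 counts in the mutants, against 6, 2 and 0 in wild type.

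Shares within the platelet count do not depend on scaling. Itga2b made up 30.2% ± 6.57 of it in the mutants, against 29.2% ± 3.50 in wild type, and Ppbp 20.4% ± 4.31 in the mutants, against 21.2% ± 3.36 in wild type (n = 3 each, SD). The GPIb-IX genes together made up 4.57%, 3.85% and 3.97% in mutant libraries 1 to 3, against 8.88%, 9.66% and 7.48% in wild-type libraries 1 to 3, with no overlap. Their counts were 9, 3 and 6 in the mutants, against 15, 17 and 24 in wild type. Without Gp1bb, Gp1ba and Gp9 made up 2.59%, 2.60% and 2.68% of the other 8 members in the mutants, against 6.10%, 5.36% and 5.41% in wild type. The integrin pair had 37.1%, 48.7% and 54.3% in the mutants, against 40.2%, 37.5% and 39.3% in wild type, with overlap. Taken singly, the Gp1bb and Gp9 shares did not overlap between the groups. The Gp1ba share did, at 2.03%, 1.28% and 0.662% in the mutants, against 3.55%, 1.70% and 2.18% in wild type. The GPIb-IX shares were picked out after the values had been seen and carry no test. How often such shares keep the groups apart over all genes was not measured.

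Ratios between members are also free of scaling. Of the 36 pairs of members, 10 had ratios without overlap between the groups, against 14.3% of all pairs of the 6353 genes seen in every library. Pairs share members and are not independent. A GPIb-IX gene was in 21 of the 36 pairs, and these ratios reuse the counts behind the GPIb-IX shares. Such a gene was in 9 of the 10 pairs without overlap. The other was Pf4 over Itgb3, with ratios of 1.32, 0.588 and 0.600 in the mutants, against 1.77, 1.57 and 1.65 in wild type. Itgb3 over Gp9 had ratios of 22, 17 and 8.33 in the mutants, against 3.25, 3.5 and 3.1 in wild type. Among the 15 pairs of the 6 tested members, that of Pf4 and Itgb3 was the 1 pair without overlap. Gp5, the fourth protein of the GPIb-IX-V complex and named after its values were seen, had 15, 6 and 4 counts in the mutants, against 7, 5 and 15 in wild type, with overlap, and it too was below the filter.

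**Figure D4:**
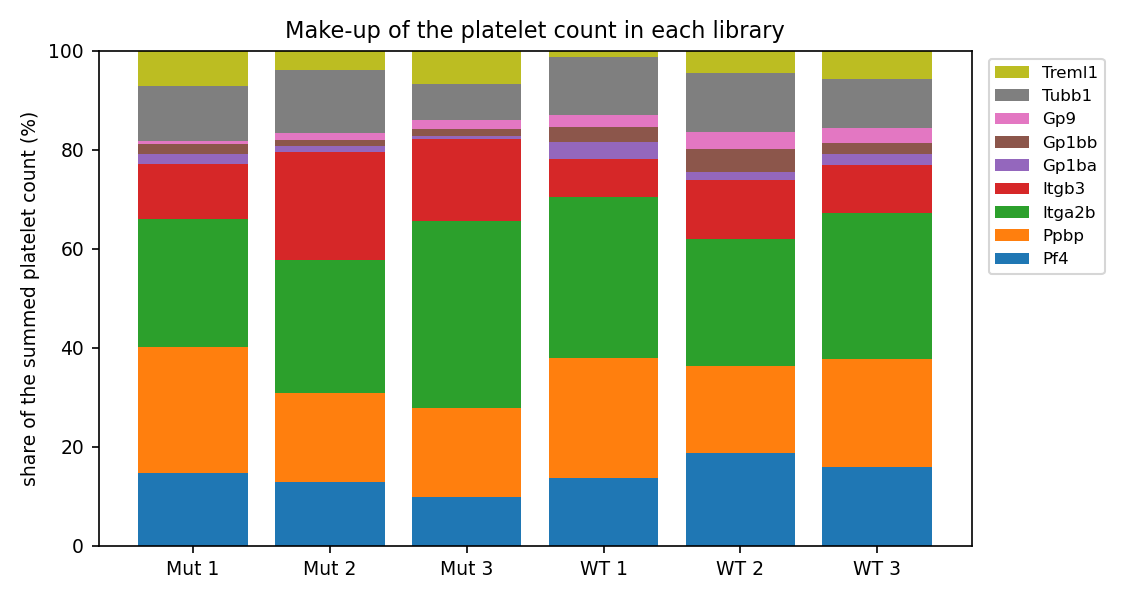
Share of the summed platelet count taken by each member in each library, in percent of the 9 members together. The GPIb-IX genes (Gp1ba, Gp1bb and Gp9) hold 3.85% to 4.57% in the 3 mutant libraries and 7.48% to 9.66% in the 3 wild-type libraries.

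Per length of gene model the chemokines led in both groups. In CPM per kilobase of total counts, Pf4 averaged 2.04 ± 1.10 in the mutants, against 3.94 ± 1.49 in wild type, and Ppbp 1.87 ± 1.11 in the mutants, against 2.84 ± 1.13 in wild type (n = 3 each, SD). Itga2b followed with 0.837 ± 0.386 in the mutants, against 1.22 ± 0.461 in wild type, and Tubb1 with 0.677 ± 0.308 in the mutants, against 1.12 ± 0.278 in wild type. Neighbours in this order, Pf4 and Ppbp or Itga2b and Tubb1, did not differ beyond their spread. Treml1 was at 0.493 ± 0.303 in the mutants, against 0.495 ± 0.417 in wild type. Itgb3, whose gene model of 5781 bases is the longest of the 9, was at 0.246 ± 0.0514 in the mutants, against 0.244 ± 0.0973 in wild type, below its partner Itga2b in every library. Gp9 averaged 0.138 ± 0.0991 in the mutants, below Itgb3, and 0.534 ± 0.233 in wild type, above Treml1. Gp1bb and Gp1ba were the lowest on this scale in both groups, at 0.0745 and 0.0485 in the mutants, against 0.209 and 0.126 in wild type.

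The promoters of members from 3 roles are shown because GATA and ETS factors are known regulators of megakaryocyte genes. Each line gives the 250 bases before the start in the RefSeq promoter table (GRCm38.p6), 5′ to 3′ on the gene's strand. For Gp1ba that start lies downstream of the start of the counted gene model, so the end of its window, with the ETS match, is inside that model. Capitals mark matches, on either strand, to a GATA-type motif, spelled AGATAA and also taken with T as its first letter or G as its last, or both, and to an ETS-type motif, spelled AGGAAG and also taken with C as its first letter. Matches to the different motifs do not overlap in these 3 windows. Pf4 lies at chr5:90772185-90772434 on the plus strand, Itga2b at chr11:102469884-102470133 on the minus strand and Gp1ba at chr11:70638872-70639121 on the plus strand.
Pf4: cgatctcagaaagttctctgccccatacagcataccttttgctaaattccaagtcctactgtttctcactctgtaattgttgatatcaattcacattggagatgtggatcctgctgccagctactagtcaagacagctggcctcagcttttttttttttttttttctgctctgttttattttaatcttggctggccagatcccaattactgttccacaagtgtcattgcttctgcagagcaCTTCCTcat
Itga2b: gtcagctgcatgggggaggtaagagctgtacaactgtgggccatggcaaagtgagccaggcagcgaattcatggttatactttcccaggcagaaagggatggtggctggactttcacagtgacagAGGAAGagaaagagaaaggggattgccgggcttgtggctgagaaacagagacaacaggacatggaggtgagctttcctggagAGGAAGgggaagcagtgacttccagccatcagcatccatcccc
Gp1ba: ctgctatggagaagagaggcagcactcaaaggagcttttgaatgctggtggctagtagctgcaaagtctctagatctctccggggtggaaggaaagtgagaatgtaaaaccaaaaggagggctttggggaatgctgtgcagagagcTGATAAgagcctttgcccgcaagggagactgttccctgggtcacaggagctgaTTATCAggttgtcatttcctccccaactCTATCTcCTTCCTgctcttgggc
Pf4 had 1 ETS match close to its start, Itga2b had 2 ETS matches and Gp1ba had 3 GATA matches and 1 ETS match. Of the 9 members 8 matched a promoter, all but Itgb3, and 6 of these held an ETS match, against 39.2% of 32851 mouse windows of this length, and 2 held a GATA match (Gp1ba and Gp1bb), against 26.5%. The Gp9 window, which held an ETS match, lies wholly inside the counted gene model. A match is only a run of letters and not a shown binding site.

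Wider lists of platelet genes, chosen with earlier results of these data known, had no gene called by the main test. With batch as a term 1 was called lower (Gng11), in a fit that called 60 of all 2823 genes lower. With total counts 2 were called lower (Gng11 and Tuba4a), where 8.68% of all genes were, so lower calls were common on that scale. The lists held 53 further genes for granules, surface receptors, signalling and the cytoskeleton, of which 52 matched and 28 were tested. Of these edgeR called 0, against 7.05% of all genes at the same adjusted p, and DESeq2 called 0. At an unadjusted p under 0.05 there were 4 by edgeR and 3 by DESeq2. The share of all genes at an unadjusted p under 0.05 was not counted, here or for any other list. The median log2 fold change of the 28 tested was −0.02 with TMM and −0.49 with total counts. Summed counts of the 52 matched were 1070, 808 and 1392 in the mutants, against 1608, 1435 and 1891 in wild type. Mutant library 2 was again the lowest. Leukocytes also express many of the most counted of these, such as Srgn (serglycin, the granule proteoglycan) and the cytoskeletal genes Myh9, Flna and Tln1.

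Of the 14 other granule genes, 8 were tested, 0 called and 2 were under an unadjusted p of 0.05 (DESeq2 called 0, with 1 under it). Nrgn, neurogranin, a calmodulin-binding protein, had 92, 32 and 66 counts in mutant libraries 1 to 3 and 95, 94 and 169 in wild-type libraries 1 to 3 (log2 fold change −0.35, SE 0.37, edgeR adjusted p = 0.721). Srgn had 80, 66 and 184 counts in the mutants, against 132, 147 and 135 in wild type (log2 0.13, edgeR adjusted p = 0.855), and Clu, clusterin, 29, 42 and 30 in the mutants, against 34, 19 and 39 in wild type (0.69, edgeR adjusted p = 0.228). Vwf, which GPIb-IX binds, had 16, 3 and 13 counts in the mutants, against 11, 11 and 25 in wild type, and so shared the low value of mutant library 2 and the high value of wild-type library 3. Selp, the P-selectin gene, named after its values were seen, was nearly absent, with 2, 0 and 2 counts in the mutants, against 1, 1 and 3 in wild type.

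Of the 16 other surface receptors, 4 were tested and 0 called, with 0 at an unadjusted p under 0.05 by edgeR or DESeq2. Cd9, a tetraspanin common on platelets, had 45, 22 and 38 counts in the mutants, against 58, 62 and 80 in wild type. Its groups did not overlap on total counts, as in 24.8% of genes with at least 20 counts, and overlapped on the TMM scale. The log2 fold change of −0.39 did not pass (SE 0.28, edgeR adjusted p = 0.534), nor did −0.89 with total counts (edgeR adjusted p = 0.0749). Fcer1g, the signalling chain of the collagen receptor, and Itga6, a laminin receptor chain, were at log2 values of −0.05 and 0.17, mutant over wild type (edgeR adjusted p = 0.961 and 0.893). Clec1b, the podoplanin receptor CLEC-2 and named after its values were seen, had 16, 3 and 17 counts in the mutants, against 6, 8 and 16 in wild type. P2ry12, the ADP receptor, also named after its values were seen, was below the filter with 7, 5 and 8 counts in the mutants, against 8, 13 and 27 in wild type. F2rl3, a thrombin receptor, had 0 counts in all libraries.

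Of the 22 signalling and cytoskeleton genes matched, 16 were tested and 0 called, with 2 at an unadjusted p under 0.05 by edgeR and 2 by DESeq2. Myh9, Flna and Tln1, for the non-muscle myosin heavy chain, filamin A and talin, were at log2 values of −0.02, −0.35 and 0.11, mutant over wild type (edgeR adjusted p = 0.967, 0.447 and 0.876). The 2 genes nearest the threshold were named after their values were seen. Gng11, a G protein gamma subunit, had 29, 10 and 15 counts in the mutants, against 45, 63 and 87 in wild type, without overlap on total counts and with overlap on the TMM scale. All mutants lay below all wild type on total counts in 24.8% of genes with at least 20 counts, so that separation is common. Its log2 fold change was −1.29 (SE 0.40, edgeR adjusted p = 0.0757). Gng11 fell with batch as a term (log2 −1.34, edgeR adjusted p = 0.000943), in a fit that called 60 of all 2823 genes lower. It also fell with total counts (−1.81, edgeR adjusted p = 0.00651), where 8.68% of all genes were called lower. DESeq2 gave it an adjusted p of 0.0657. Tuba4a, an alpha tubulin, had 48, 50 and 70 counts in the mutants, against 116, 120 and 137 in wild type, without overlap on either scale (log2 −0.64, SE 0.21, edgeR adjusted p = 0.0713). It fell with total counts (−1.11, edgeR adjusted p = 0.0106) and did not pass with batch as a term (edgeR adjusted p = 0.0914). Across all genes with at least 20 counts, 9.33% had all mutants below all wild type with TMM scaling.

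Megakaryocyte transcription factors were tested for 5 of 12 genes, with 0 called (1 at an unadjusted p under 0.05; DESeq2 called 0, with 0 at an unadjusted p under 0.05) and a median log2 fold change of −0.24. Red cell precursors use several of them too. Nfe2 had 30, 27 and 34 counts in the mutants, against 52, 37 and 46 in wild type (log2 −0.04, edgeR adjusted p = 0.961). Zfpm1, the GATA1 partner FOG1, had 20, 19 and 30 counts in the mutants, against 48, 46 and 57 in wild type (−0.62, edgeR adjusted p = 0.207). Tal1 had 15, 12 and 16 counts in the mutants, against 24, 31 and 41 in wild type (−0.63, edgeR adjusted p = 0.303). With total counts Zfpm1 and Tal1 were lower (−1.09 and −1.12, edgeR adjusted p = 0.0393 and 0.0499), when 8.68% of all genes were. Mecom had 0 counts in all 6 libraries.

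The genes most like the platelet sum over the 6 libraries were looked for among 3226 other genes with at least 50 counts. Likeness was the root mean square distance between profiles of log2(CPM of total counts + 0.5), each centred on its own mean. The nearest 5 were Tagln2 (transgelin 2, distance 0.0963), Nrgn (0.128), Ctla2a (0.139), Vwf (0.142) and Mmd (0.143), against a median distance of 0.551. Nrgn and Vwf are on the list of other granule genes above. Ctla2a had 148, 62 and 100 counts in mutant libraries 1 to 3 and 126, 151 and 207 in wild-type libraries 1 to 3. Tagln2 had 26, 7 and 19 counts in the mutants, against 23, 20 and 40 in wild type. All 5 were lowest in mutant library 2 and highest in wild-type library 3. The sum has the same extremes and the 5 were chosen for likeness to it, so this adds no support. Among the members with at least 50 counts, Ppbp, Itga2b and Pf4 lay at 0.162, 0.179 and 0.203, Tubb1 at 0.273, Treml1 at 0.386 and Itgb3 farthest at 0.456. Gp1ba, Gp1bb and Gp9 had fewer counts and were not compared. The members are part of the sum, and libraries, totals and depth are shared by all genes.

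**Figure D5:**
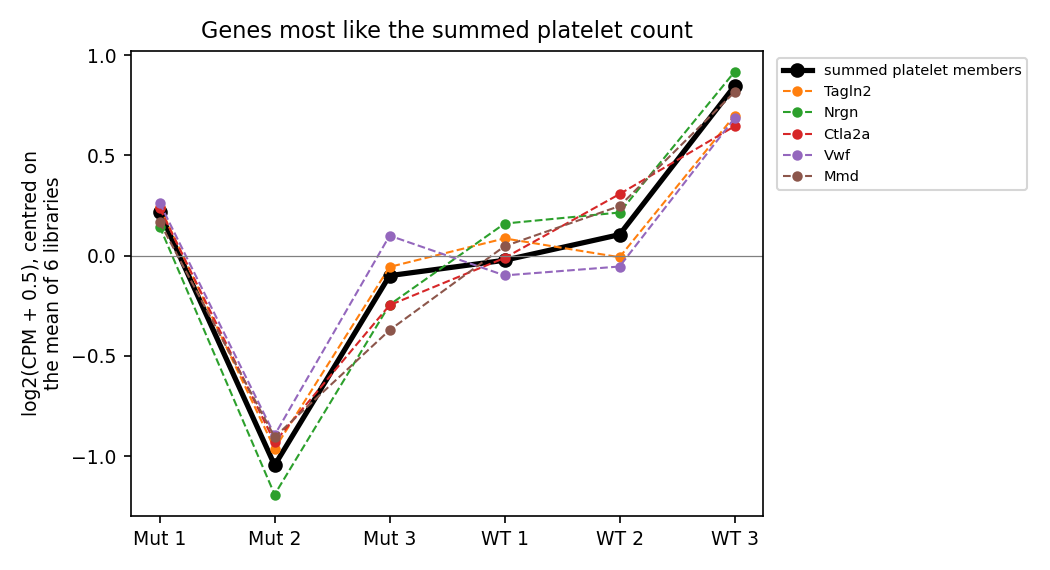
Profiles of log2(CPM + 0.5), each centred on its mean, for the sum of the 9 members (thick line) and the 5 genes nearest to it over the 6 libraries; lines join points only as a guide. All profiles are lowest in mutant library 2 and highest in wild-type library 3, and the 5 genes were chosen for likeness to the sum.

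The 43 leukocyte markers, of which Elane was at 0, had 1911, 1900 and 3168 counts in mutant libraries 1 to 3 and 3526, 2926 and 3415 in wild-type libraries 1 to 3. Platelet counts per leukocyte count were 0.103, 0.0411 and 0.0477 in the mutants, against 0.0479, 0.0602 and 0.0940 in wild type, with overlap. Neutrophil markers made up most of the leukocyte count, with 1107 to 2197 counts in the mutants, against 1859 to 2417 in wild type. T and NK cell markers had 26 to 42 counts in the mutants, against 69 to 146 in wild type, and 2 of 3 tested, Gzma and Tcf7, were lower by edgeR, against 1.06% of all genes, while DESeq2 called 1 gene of the list lower. B cell markers had 92 to 175 counts in the mutants, against 188 to 494 in wild type. Monocyte and macrophage markers had 143 to 302 counts in the mutants, against 162 to 262 in wild type, and pan-leukocyte genes 315 to 550 in the mutants, against 578 to 654 in wild type. Mast cell and basophil markers had 44 to 127 counts in the mutants, against 37 to 128 in wild type, and endothelial markers 14 to 29 in the mutants, against 11 to 31 in wild type. None of the tested genes on these blood and endothelial lists other than Gzma and Tcf7 was called by edgeR, with 3 others at an unadjusted p under 0.05, and DESeq2 called 1 of these, Lyz2, higher. Of 12 hepatocyte genes tested 10 were higher, and of 10 red cell genes 1 was. Genes with at least 10 counts numbered 2103, 2353 and 2772 in the mutants, against 4096, 2741 and 3401 in wild type. The part of leukocytes, of hepatocyte transcripts and of the number of genes seen in the platelet values was not tested.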

How the data were processed

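RNA was measured in 6 libraries of purified mouse red cells, 3 from Nxf1 mutant males and 3 from wild-type littermates. Blood was taken by cardiac puncture and red cells were pelleted through Ficoll, per the labels' protocols, and polyadenylated RNA was made into Illumina TruSeq libraries. Each deposited file is a table of raw, whole-number counts for 1 library, per the file headers. CASAVA 1.8.2, Subread, featureCounts and the mm10 build are named in the submitters' processing notes, and neither strand setting nor annotation is stated there. Reads without molecular identifiers are not independent molecules, so intervals and floors cover counting error only.

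Symbols came from RefSeq for 25275 of 27179 genes, and genes without one, with 1.39% of counts, stayed in the tests. The main test was edgeR 4.0.16 in R 4.3.3 (quasi-likelihood, robust, TMM, filterByExpr, genotype only, Benjamini-Hochberg over 2823 genes, called at 0.05), tested on simulated data. SE is the fold change divided by the root of F. Level comparisons of sparse genes used exact two-sided permutation tests (scipy 1.17.1).

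The labels' batch number pairs 1 mutant with 1 wild-type library. Same-batch deviations from group means correlated at −0.116, −0.0855 and −0.0439 across genes. Alternatives were batch as a term, RLE scaling, total counts, globin removal, no filter, DESeq2 1.42.0 and leaving out each library. Replicate libraries differed beyond sampling noise, and each came from 1 animal.

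Members and lists were chosen with earlier results of these data known. All 9 members are named. From each other list the 3 members with most counts were taken, with any called, and then the 5 genes most like the platelet sum. Of 161 list entries 158 matched. F2rl3, Mecom and Elane are named only for having 0 counts in all libraries. Other list genes named after their values were seen are marked in the text.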

Additional observations from a re-analysis of the deposited data

How the results depend on the processing

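None of the 6 tested members was called in any alternative fit across genes. These fits gave 72 member values, which share fits and libraries, with a lowest adjusted p of 0.136 (edgeR, total counts). Batch as a term (the replicate block) called 0 of the members as well. Signs changed for Ppbp, at 0.010 with DESeq2, and Treml1, at −0.017 with total counts. Leaving out single libraries changed the sign of 4 members, with log2 fold changes from −0.73 to 0.32 for Ppbp, −0.29 to 0.29 for Itga2b, −0.72 to 0.17 for Tubb1 and −0.074 to 1.29 for Treml1, and kept it for Pf4 (−1.04 to −0.096) and Itgb3 (0.22 to 0.79). The cause was not tested.

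Over all genes, 169 were called higher and 30 lower. No filter gave 382 and 82. Lower calls numbered 19 with RLE, 245 with total counts, 11 with DESeq2 and 60 with batch as a term, and leaving out single libraries gave 8 to 77 lower and 137 to 244 higher. The difference in summed platelet CPM was −1.96 to −6.68 without single libraries and −0.603 with TMM factors. The mean of the differences within batches was −4.93, which equals the pooled value by construction. The Itga2b share of the platelet count differed by −2.83 to 3.10 points without single libraries, against 0.951 with all. The GPIb-IX share difference, −4.54 points, was −5.14 to −4.05 without single libraries and −3.00 without Gp1bb, settings added after seeing the data. Depth limits Gp1ba, Gp1bb and Gp9 most, at 10 counts or fewer per library.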
